A study of Homo sapiens with 6 samples.

Results

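The 53 genes described here encode the synaptic vesicle and its release machinery in human neurons, and are 53 of the 19974 protein-coding genes that the RefSeq table of GRCh38.p14 places on chromosomes 1 to 22 and X. They were chosen by function and fall into 12 calcium sensors and their relatives, 12 vesicle proteins, 10 SNARE proteins and SNARE regulators, 15 active zone and priming proteins and 4 endocytic proteins. A peak was assigned to a gene when it shared at least 1 bp with the gene's interval extended by 1 kb at each end.

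The cells were neurons differentiated with the Bardy BrainPhys protocol from neural progenitors of KOLF2.1J, a line of human iPSCs (induced pluripotent stem cells). ChIP-seq, which sequences the DNA that an antibody to a chromatin protein pulls down, was done with an antibody to CTCF (2 replicates), with an antibody to histone H3 acetylated at lysine 27 (H3K27ac, 2 replicates), and without immunoprecipitation as input (2 replicates). All 6 libraries came from this line, the labels name no other genotype or treatment, and they do not say whether the replicates were separate cultures. The study used these profiles to nominate candidate regulatory elements.

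Each antibody has 1 peak list over both replicates, with 78694 H3K27ac peaks and 43677 CTCF peaks, so no value below has a spread between replicates, and no difference could be tested. The lists hold no read counts and the depth is unknown. A peak is a property of the whole culture, in which fewer cells with a mark and less of it per cell cannot be told apart.

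At a nerve terminal, neurotransmitter is stored in vesicles that are tethered to the active zone, primed by assembly of SNARE proteins, and fused with the plasma membrane when synaptotagmins bind calcium. The membrane is then recovered by endocytosis. H3K27ac marks active promoters and enhancers, and CTCF is a DNA-binding protein that positions chromatin loops and insulates neighbouring domains; neither is a measurement of transcript levels.

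All 10 neuronal markers examined (RBFOX3, TUBB3, MAP2, DCX, ELAVL3, ELAVL4, GAP43, ENO2, NCAM1 and INA) carried H3K27ac, with a median strongest fold enrichment of 22.2. All 8 neural progenitor markers did too, with a median of 28.9. H3K27ac also lay on 5 of 5 inhibitory, 2 of 5 excitatory, 4 of 5 astrocyte, 2 of 5 oligodendrocyte and 2 of 5 pluripotency markers. The part that progenitor or glial chromatin has in the peaks described below was not tested.

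H3K27ac was found on 45 of the 53 release genes (84.9%, exact Clopper-Pearson 95% interval 72.4 to 93.3%) and on 70.8% of all protein-coding genes. CTCF was found on 46 of the 53 (86.8%, interval 74.7 to 94.5%) and on 60.4% of all protein-coding genes. The intervals treat genes as independent draws and carry no replicate error. Release genes are long, with a median of 87.5 kb against 24.2 kb, and a longer interval has more room for peaks. With all genes weighted to the members' mixture of lengths, 82.2% had H3K27ac and 76.0% had CTCF. The H3K27ac share was therefore close to that of genes of like length, and the CTCF share lay above it, with 76.0% still inside its interval.

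Both marks were present on 41 release genes, H3K27ac without CTCF on 4 (SYT5, SYT11, SV2A and NSF), CTCF without H3K27ac on 5 (SYT6, SYT12, DOC2B, SV2B and STX1A), and neither on 3 (SYNGR3, CPLX1 and CPLX3). Of all protein-coding genes, which are shorter, 51.8% had both marks, a share not matched for length. The shares of all genes with a single mark or neither were not computed. The genes overlapped 244 H3K27ac peaks whose fold enrichment had a median of 4.65 (whole list, 4.74), and 167 CTCF peaks, whose signal had a median of 91.4 (whole list, 91.0). The fold enrichments and signals are the authors' own values for each peak. Of the 167 CTCF peaks, 55 (32.9%, whole list 33.4%) have a fixed width of 800 bp, and 7 of these had q above 0.05 and overlap another CTCF peak (in CPLX2, ERC2, RIMS2, RIMS4, SYN3, SYT3 and SYT9). They are counted as deposited, and with overlapping entries merged 159 CTCF peaks remained on the same number of genes, 46. Taken peak by peak, the strength on these genes was close to that of each whole list.

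**Figure D1:**
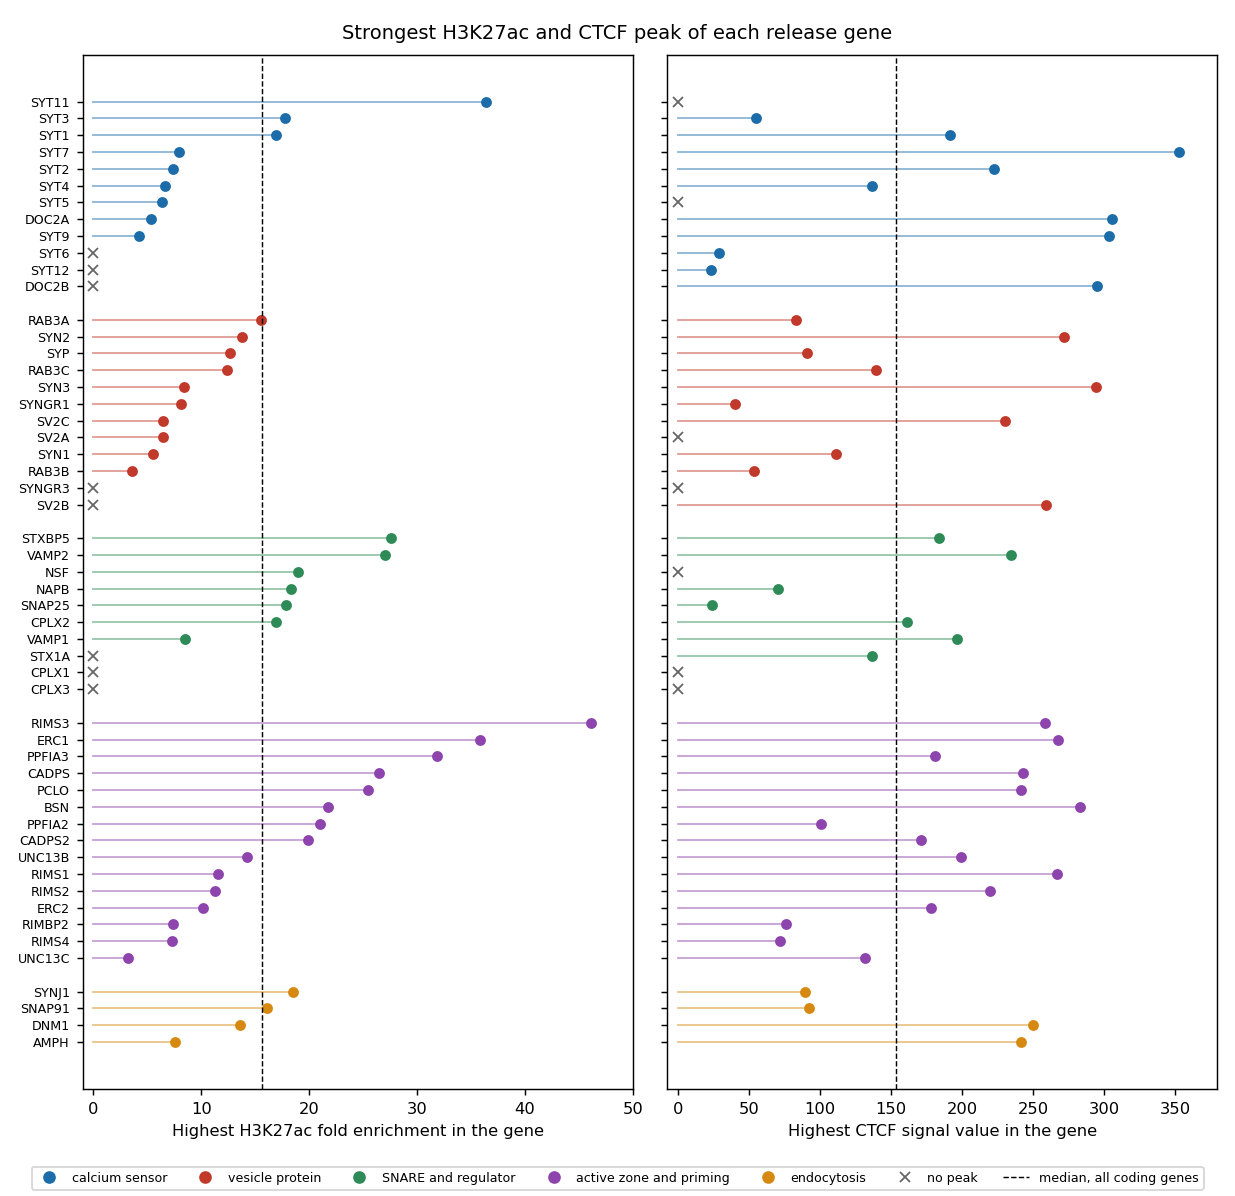
Highest H3K27ac fold enrichment (left) and highest CTCF signal value (right) of each release gene, 1 point per gene, grouped and coloured by function; crosses mark genes with no peak and dashed lines the median over all protein-coding genes with a peak (15.7 and 153). The active zone group has no gene without a peak in either panel, and the highest H3K27ac values are those of RIMS3, SYT11, ERC1 and PPFIA3.

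Start sites were listed in the RefSeq promoter table for 42 of the 53 genes. CPLX1, CADPS2, RIMS2, SYT7, SYT12, SYNGR3, DOC2A, DOC2B, SNAP25, RIMS4 and SYN3 had no entry. An H3K27ac peak lay within 1 kb of a listed start in 33 of 42 (78.6%) and in 65.9% of all protein-coding genes with a listed start. A CTCF peak lay that near in 18 of 42 (42.9%) and in 35.4% of all such genes. All 12 active zone genes and all 4 endocytic genes with a listed start had acetylation there, against 6 of 8 calcium sensors, 6 of 10 vesicle proteins and 5 of 8 SNARE genes. The genes without it were SYT2, SYT6, SV2A, SV2B, SV2C, RAB3B, STX1A, CPLX3 and NSF. The whole SV2 family of vesicle membrane glycoproteins is among them. For SV2A and SV2C the listed starts begin 10.9 kb and 236 kb inside the gene interval, so an earlier start would not have been seen. The acetylation of SV2A (fold enrichment 6.42 and 5.55) lay 11.1 and 10.7 kb upstream of the listed start, at the edge of the gene. Among the 12 active zone genes, the listed starts of RIMS3 and UNC13C also begin inside the interval, by 26.4 kb and 141 kb. The strongest peaks at these 2 starts reached 6.62 and 3.17.

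**Figure D2:**
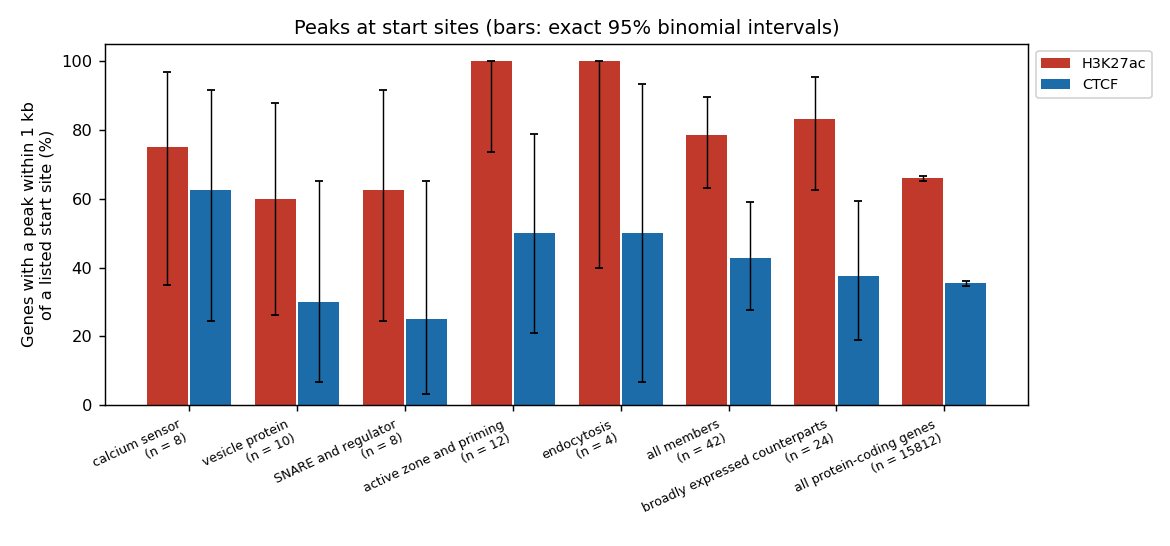
Share (%) of genes with a peak within 1 kb of a listed start, for H3K27ac and CTCF, by functional group, for the broadly expressed counterparts and for all protein-coding genes; the number of genes stands under each group and error bars are exact 95% binomial intervals over genes. H3K27ac reaches at least 1 listed start of every gene in the active zone and endocytosis groups. CTCF reaches 5 of 8 genes in the calcium sensors and 2 of 8 in the SNARE group.

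The following 3 promoters are shown because the strongest H3K27ac peaks that covered a promoter of a release gene lay there. Each is the 250 bases before the start, 5′ to 3′, from RefSeq (GRCh38.p14), with the GC box GGGCGG in capitals on either strand.
SYT11 (chr1:155859317-155859566, plus strand): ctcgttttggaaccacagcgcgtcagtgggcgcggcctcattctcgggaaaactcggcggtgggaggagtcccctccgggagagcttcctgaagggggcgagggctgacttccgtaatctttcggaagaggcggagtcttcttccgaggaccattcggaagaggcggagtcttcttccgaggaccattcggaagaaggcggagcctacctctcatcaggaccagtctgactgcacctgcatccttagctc
ERC1 (chr12:990973-991222, plus strand): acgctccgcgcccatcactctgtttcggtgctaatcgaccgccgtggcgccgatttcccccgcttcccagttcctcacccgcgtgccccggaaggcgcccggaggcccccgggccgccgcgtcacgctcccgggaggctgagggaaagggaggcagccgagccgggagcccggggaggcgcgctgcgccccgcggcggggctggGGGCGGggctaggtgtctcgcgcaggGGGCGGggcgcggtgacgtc
STXBP5 (chr6:147204167-147204416, plus strand): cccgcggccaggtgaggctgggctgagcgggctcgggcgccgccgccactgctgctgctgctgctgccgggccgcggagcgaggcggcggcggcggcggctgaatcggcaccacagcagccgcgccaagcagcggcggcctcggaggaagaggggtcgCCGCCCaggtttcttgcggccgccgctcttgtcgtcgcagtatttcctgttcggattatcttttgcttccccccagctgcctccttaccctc
The SYT11 promoter held no GC box in these bases at a fold enrichment of 36.4, the ERC1 promoter held 2 at 35.9, and the STXBP5 promoter held 1 at 27.6. The highest of the 3 is thus the promoter without this element.

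The next pair had the strongest CTCF peaks over the promoter. The letters AGGNGGC, a core of the CTCF motif, are in capitals on either strand.
DNM1 (chr9:128203129-128203378, plus strand): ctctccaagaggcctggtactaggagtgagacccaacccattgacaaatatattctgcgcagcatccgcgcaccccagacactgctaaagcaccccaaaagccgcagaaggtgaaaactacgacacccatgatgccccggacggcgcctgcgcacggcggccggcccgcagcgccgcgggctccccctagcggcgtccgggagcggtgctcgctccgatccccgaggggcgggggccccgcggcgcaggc
ERC2 (chr3:56468468-56468717, minus strand): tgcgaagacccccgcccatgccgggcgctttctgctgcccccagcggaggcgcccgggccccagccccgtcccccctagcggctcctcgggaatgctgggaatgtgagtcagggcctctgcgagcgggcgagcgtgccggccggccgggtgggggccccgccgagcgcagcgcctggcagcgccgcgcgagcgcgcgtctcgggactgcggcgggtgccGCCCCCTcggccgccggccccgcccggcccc
DNM1 had a CTCF signal of 204 and no exact match in these bases. Only exact matches to these letters were searched, so a CTCF site that departs from them would have been missed. ERC2 had a signal of 167 and 1 match, on the strand opposite to the gene's, whose first base lies 31 bases before the start (chr3:56468492-56468498). The summit of that CTCF peak was not at the match but at chr3:56468715, at the upstream end of the bases shown.

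SYN1 is shown as the 1 release gene with a match to the element of the repressor NRSF/REST, in capitals, and NSF as the promoter with the highest CpG ratio among those without acetylation, with no GC box in the bases shown.
SYN1 (chrX:47619858-47620107, minus strand): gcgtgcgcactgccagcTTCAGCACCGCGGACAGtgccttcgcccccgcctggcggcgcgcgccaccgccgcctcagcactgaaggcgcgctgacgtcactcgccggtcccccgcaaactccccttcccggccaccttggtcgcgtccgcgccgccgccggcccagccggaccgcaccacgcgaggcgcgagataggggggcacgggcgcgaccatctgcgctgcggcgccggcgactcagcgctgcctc
NSF (chr17:46590419-46590668, plus strand): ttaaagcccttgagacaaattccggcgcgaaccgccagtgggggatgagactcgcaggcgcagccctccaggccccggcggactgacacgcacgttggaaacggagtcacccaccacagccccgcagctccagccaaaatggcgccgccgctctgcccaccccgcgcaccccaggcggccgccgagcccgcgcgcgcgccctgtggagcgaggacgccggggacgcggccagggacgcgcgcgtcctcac
The SYN1 match (chrX:47620074-47620090) begins 233 bases before the start and lay under a CTCF peak of signal 111 (chrX:47619854-47620250). An H3K27ac peak of fold enrichment 5.54 (chrX:47619662-47619832) lay beside the CTCF peak without overlapping it. No H3K27ac peak lay within 1 kb of the NSF start.

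Each gene was given 1 window of 300 bases, from 250 before to 50 after a listed start. Where a gene had more than 1 start, the start with the strongest H3K27ac within 1 kb was used, or else the first. With both strands searched, the NRSF/REST element (1 mismatch allowed) was found in 1 of 42 release genes (2.38%) and 1.29% of all 15812 genes with a listed start. AGGNGGC was found in 27 (64.3%) and 42.4% of all, the NRF1 letters GCGCANGCG in 8 (19.05%) and 11.2%, and GGGCGG in 32 (76.2%) and 58.9%. The cAMP response element TGACGTCA was found in 1 (SYN1, 2.38%) and 2.61%, and the TATA box letters TATAAA in 0 and 9.65%. A GC box and a CTCF core can share bases, so their matches are not independent. The windows had a median GC content of 69.67% in release genes and 63% in all genes. The motif shares were not matched for it. The observed to expected CpG ratio had a median of 0.821 in release genes and 0.764 in all genes. It was 0.833 in the 33 release genes with acetylation at the start and 0.776 in the 9 without, while over all genes the medians were 0.849 and 0.317. The medians with and without acetylation thus lay closer together in release genes than over all genes. SV2A (0.287) and SV2B (0.296) had the lowest ratios of the 42. The SV2A window is at a listed start 10.9 kb inside the gene interval, away from the acetylation at the interval's edge.

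The calcium sensors ranged from no H3K27ac to some of the highest values. SYT11, an unusual synaptotagmin that does not bind calcium, had 6 H3K27ac peaks, the highest at 36.4 over its start (chr1:155859495-155861926), a peak that also lies in the interval of the neighbouring gene GON4L. Only 5.94% of genes of similar length had as many. SYT1, the main calcium sensor for fast release, had 20 peaks, with 16.96 at the start and the next highest 14.0 (chr12:79380408-79382462) at 517 kb into the gene. SYT3 reached 17.8 at its start, in a peak shared with C19orf81 and SHANK1. SYT7, SYT2, SYT4, SYT5, DOC2A and SYT9 stayed between 4.22 and 7.98, below the 15.7 median of all genes with a peak, and SYT6, SYT12 and DOC2B had none. The nearest H3K27ac peak to SYT6 was 110 kb away, whereas that to SYT12 was 3.705 kb away.

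CTCF did not follow that order. SYT7, a high-affinity sensor tied to asynchronous release and facilitation, had the highest CTCF signal of all 53 genes, 353 (chr11:61516847-61517347), and 8 CTCF peaks, a number reached by 0.48% of genes of similar length. It had 1 H3K27ac peak, of 7.98. DOC2A and DOC2B, soluble sensors with a pair of C2 domains, had signals of 305 and 295, and SYT9 of 303. DOC2B had 4 CTCF peaks (5.86% of similar genes had as many) without any H3K27ac. SYT11 had no CTCF peak, and the nearest was 25.55 kb from the gene.

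Among the vesicle proteins the acetylation was low in strength and very unequal in number. RAB3A, the most abundant RAB3 GTPase on synaptic vesicles, had the highest value, 15.5 (chr19:18204429-18205734), with a second peak of 11.3 just inside the gene, within 1 kb of its start. SYN2, a synapsin that clusters vesicles, reached 13.7 in a peak 155 kb into the gene that also covers TIMP4, and 7.58 at its own start. SYP, which encodes synaptophysin, reached 12.7 and 11.3 at 9.41 and 8.62 kb into the gene, and 5.54 at its start. SYN1 had no peak above 5.54. SYNGR1, a synaptogyrin, reached 8.13 at its start. SV2C had 4 peaks up to 6.44 over 506 kb, and RAB3B 1 peak of 3.61 at 70.9 kb.

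RAB3C, a close relative of RAB3A, had 22 H3K27ac peaks in 277 kb, more than any other release gene, where the median gene of similar length had 7. The peak at its start reached 12.2, but 11.1 and 12.4 were also reached at 222 kb and 267 kb, and 14 of the 22 peaks lay between 191 and 268 kb. SYN3 had 16 H3K27ac peaks, none above 8.36, and 13 CTCF peaks (6.39% of similar genes had as many) with 4 signals between 282 and 294. Of its H3K27ac peaks, 11 lay in no other coding gene. The others, and some of its CTCF peaks, also lay in the interval of TIMP3. SV2B, by contrast, had 7 CTCF peaks with signals up to 259 and no H3K27ac peak within 76.5 kb. SYNGR3, another synaptogyrin, had neither mark, with a strong H3K27ac peak of 33.85 at 4.779 kb from the gene.

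The SNARE group was split. VAMP2, the vesicle SNARE of fast release, had H3K27ac peaks of 26.996 and 26.3 (chr17:8163070-8164947 and chr17:8161869-8162988), the first upstream of its starts and the second over them, and 1 CTCF peak of 234. STXBP5, the inhibitory protein tomosyn, had 1 H3K27ac peak, of 27.6, in 186 kb. SNAP25, the plasma membrane SNARE, had 17.9 and 13.9 in adjacent peaks (chr20:10217037-10218707 and chr20:10218817-10219784), and NAPB, a SNAP adaptor that serves SNARE disassembly, reached 18.3 at its start. VAMP1, a vesicle SNARE like VAMP2, had 1 H3K27ac peak of 8.46 at its start, in a peak that also lies in TAPBPL, and 1 CTCF peak of 197. STX1A, the partner of SNAP25 in the plasma membrane, had no H3K27ac, and its nearest peak was 15.0 kb away.

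Of the complexins, which clamp and promote fusion, CPLX2 had 6 H3K27ac peaks, with 16.95 at its start, and 6 CTCF peaks, a number reached by 3.31% of genes of similar length. CPLX1 and CPLX3 had neither mark. The nearest H3K27ac peak to CPLX1 lay 2.14 kb outside the gene and had a fold enrichment of 28.6, so its assignment depends on the 1 kb limit. NSF, the ATPase that takes SNARE complexes apart, had 7 H3K27ac peaks with a maximum of 18.99. All 7 lay 130 to 144 kb from its start and inside the interval of LRRC37A2, which contains NSF. A transcribed pseudogene of NSF (NSFP1) lies on the same chromosome. Whether reads were split between NSF and this copy was not tested, so these values are uncertain.

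All 15 active zone and priming genes had both marks. They are long, 10 of them over 300 kb, a length at which 96.6% of all protein-coding genes had both, and with all genes weighted to the lengths of this group the share was 88.0%. RIMS3, a short member of the RIM family, had the highest fold enrichment of the 53 genes, 46.2 (chr1:40691210-40692919), but that peak also lies in NFYC and is 26.1 kb upstream of the listed start of RIMS3, which begins 26.4 kb inside the gene interval, so the peak is at the interval's 5′ edge; the highest value of RIMS3 outside it was 11.8. ERC1, an ELKS scaffold found in many tissues, reached 35.9 over its start in a peak that also touches RAD52, and PPFIA3, a liprin, 31.9 in a peak that also touches C19orf73 and LIN7B. CADPS, a priming factor of dense-core vesicles, had 26.5 at its start in a peak of no other coding gene, and its paralogue CADPS2 reached 19.9.

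PCLO and BSN encode the giant scaffolds piccolo and bassoon. PCLO had a single H3K27ac peak in 409 kb, 25.5 at its start (chr7:83162002-83163197), where the median gene of similar length had 9. BSN had 7 peaks in 119 kb, with 13.2 at its start and 21.8 beyond its far end, in APEH. PPFIA2, a liprin like PPFIA3, resembled PCLO, with 1 peak of 21.0 at its start in 501 kb, where the median similar gene had 10. PPFIA3 in 31.5 kb had 7 peaks, reached by 5.67% of similar genes, and 5 CTCF peaks, reached by 2.03%.

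The RIM proteins RIMS1, RIMS2 and RIMS4 reached 11.5, 11.3 and 7.33, and RIMBP2, a RIM-binding protein, 7.38. Of the Munc13 priming proteins, UNC13B reached 14.3 at its start and UNC13C 3.17, the lowest maximum of any acetylated release gene. ERC2, the brain ELKS paralogue, had 21 H3K27ac peaks and 16 CTCF peaks, the most CTCF peaks of the 53, in 960 kb. Its CTCF signals reached 178, and its H3K27ac maximum of 10.2 (chr3:55537064-55538226) lay 931 kb into the gene, beside a value of 9.74 at the start. For CTCF in this group the highest signals were 283 in BSN, 267 in ERC1 and 267 in RIMS1, where the peak lay 0.37 kb from the start and overlapped H3K27ac.

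The endocytic genes all had acetylated starts. SYNJ1, the phosphoinositide phosphatase synaptojanin, had 18.5 and 13.4 in adjacent peaks over its start. SNAP91, the clathrin adaptor AP180, had 16.1, DNM1, the neuronal dynamin that severs vesicles, had 13.6, and AMPH, which recruits dynamin, had 7.60. DNM1 had 7 H3K27ac peaks, reached by 8.50% of genes of similar length, and 3 of these lie also in CIZ1. Its CTCF peaks had signals of 250 at 52.05 kb and 204 at the start.

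Long release genes came in contrasting forms. Of the 24 members over 100 kb, AMPH, PCLO, PPFIA2 and STXBP5 had exactly 1 H3K27ac peak, in all 4 within 1 kb of a start (16.7% of the 24, against 9.16% of the 3351 protein-coding genes over 100 kb). Another 5 had at least 15 peaks (SYT1, SYN3, RAB3C, CADPS and ERC2; 20.8%, against 17.1%). In SYT1, 11 of the 20 peaks lay 517 to 560 kb from the start, at the far end of the gene, among CTCF peaks at 480, 509, 543 and 556 kb. In ERC2 a far group of 7 peaks lay at 921 to 955 kb. The order of these genes by length is not their order by peak number.

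**Figure D3:**
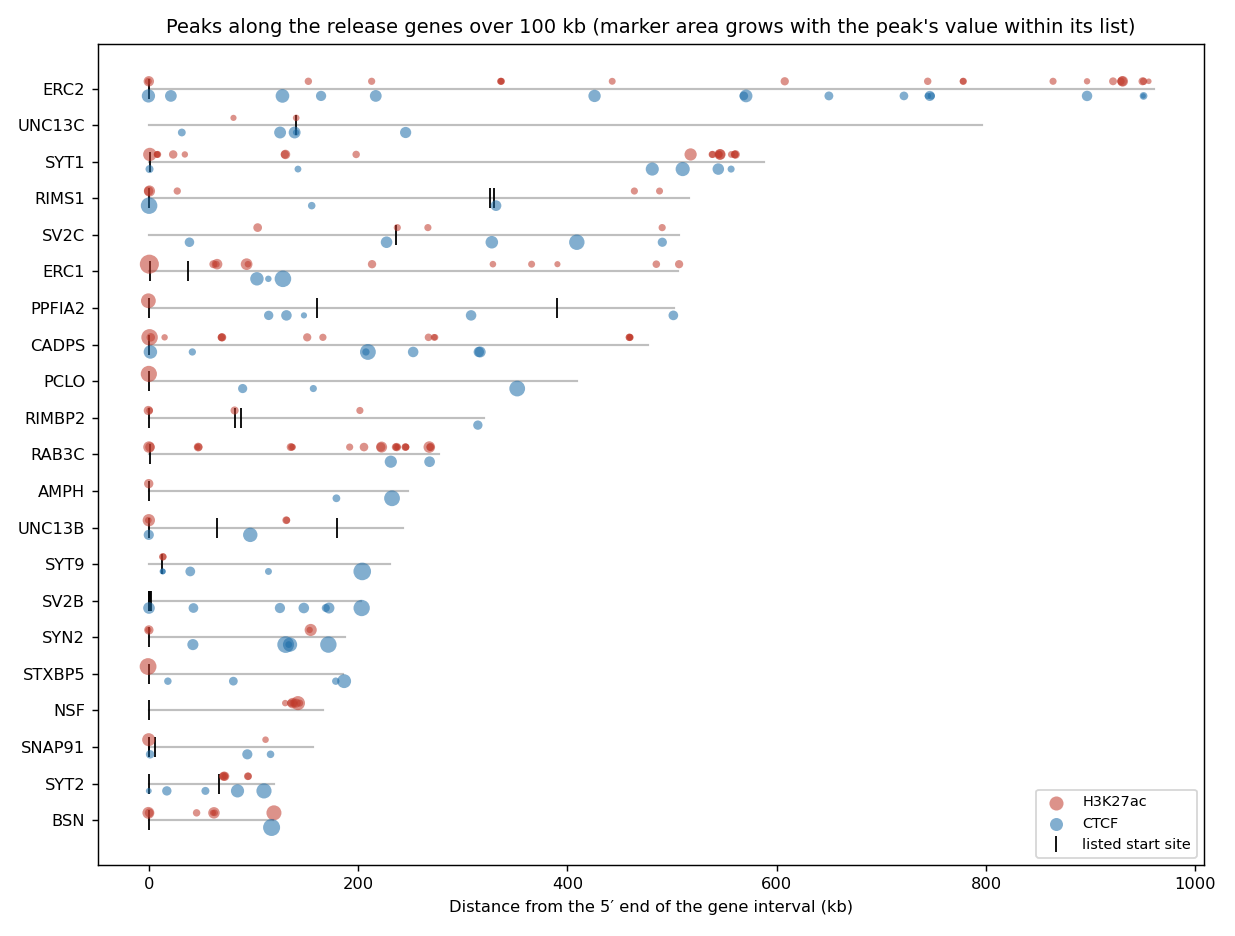
Position of H3K27ac (red) and CTCF (blue) peaks along the release genes over 100 kb with a listed start, in kb from the 5′ end of the gene interval; marker area grows with the peak's value within its list and black ticks are listed starts. PCLO and PPFIA2 show 1 H3K27ac peak at the start, while SYT1, RAB3C and ERC2 show peaks at the start and a further group at the far end.

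Against the protein-coding genes within 20% of its own length, a release gene had more H3K27ac peaks than the median in 24 cases, as many in 3 and fewer in 26. The 24 are 45.3% of the members, and 39.0% of all protein-coding genes exceed the median of their like. For CTCF, 24 had more (45.3%, against 36.0% of all genes), 9 as many and 20 fewer. By number of peaks, 3 of the 53 members were in the top 10% of similar genes for H3K27ac and 5 for CTCF. By its definition that top group holds about 10% of all genes or fewer, so such members do not set the release genes apart. The strongest H3K27ac peak exceeded the median strongest peak of similar genes in 19 of the 45 members with a peak (42.2%, against 50% of all genes with a peak), and the strongest CTCF peak in 24 of 46 (52.2%, against 50.1%). Per 10 kb, the median release gene had 0.22 H3K27ac peaks against 0.39 over all genes, and 0.19 CTCF peaks against 0.16. Over the summed length of all members the densities were 0.23 and 0.15, against 0.46 and 0.22 over all genes, so for CTCF the order of the medians was not that of the pooled densities. Release genes were thus spread on both sides of genes of like length rather than set apart from them.

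**Figure D4:**
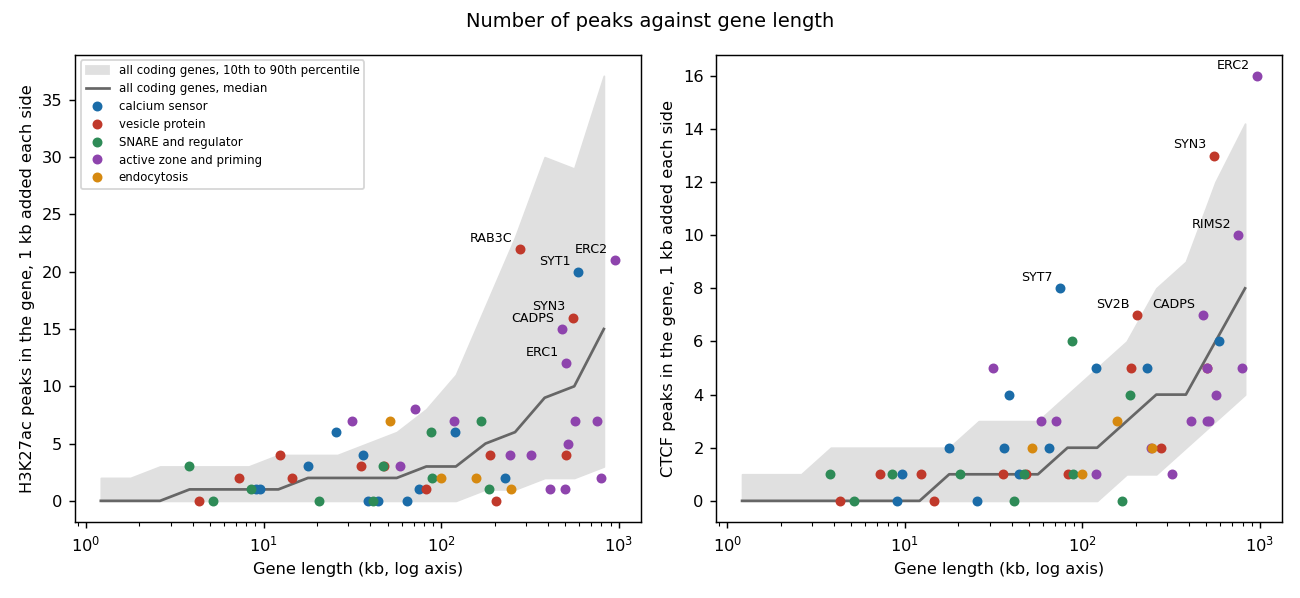
Number of H3K27ac and CTCF peaks of each release gene against gene length in kb (log axis), coloured by function, with the median of all protein-coding genes by length as a line and their 10th to 90th percentile as a grey band. Points lie on both sides of the line in each panel, with RAB3C (22 peaks) at the upper part of the H3K27ac band and SYT7 (8) and SYN3 (13) above the CTCF band.

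Most peaks of the release genes were far from a start. Of 205 H3K27ac peaks in members with a listed start, 56 lay within 1 kb of one (27.3%, against 36.7% over all genes) and 129 beyond 10 kb (62.9%, against 48.0%). The peaks at starts had a median fold enrichment of 8.003, those beyond 10 kb one of 4.32 (all genes, 9.90 and 4.27). For CTCF the order of strength was the opposite: the 19 of 121 peaks within 1 kb (15.7%, against 28.7%) had a median signal of 54.6, and the 90 beyond 10 kb (74.4%, against 52.9%) one of 93.8 (all genes, 63.1 and 94.0). The release genes thus had the same order of strengths as all genes in both marks. In 26 of the 38 acetylated genes with a listed start the strongest H3K27ac peak lay within 1 kb of it (68.4%, against 76.0% over all genes). In 9 it lay beyond 10 kb (23.7%, against 15.4%). Of these 9, RIMS3 and SV2A have listed starts inside the gene interval, and their strongest peaks lie at its 5′ edge. None of the shares in this paragraph was matched for gene length, and the release genes are longer (median 87.5 kb against 24.2 kb).

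Of the members with a listed start, 11 had further starts more than 1 kb along. Among these, 8 of 11 first starts had H3K27ac (72.7%) and 2 of 17 later starts did (11.8%), namely a start of RIMBP2 at 82.4 kb (5.42) and a start of SYT3 at 18.2 kb (3.66). SYT2, SYT6 and SV2B had no acetylated start of either kind. Over all genes the shares were 63.1% of 2360 first starts and 52.5% of 3759 later starts. These shares were not matched for gene length or for the distance between starts. The 17 later starts come from only 11 genes, so they are not independent, and the difference was not tested.

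CTCF peaks of these genes lay on H3K27ac in a minority of cases. H3K27ac overlapped 35 of the 167 (21.0%, against 28.1% of the CTCF list and 39.4% over the peaks of all protein-coding genes, counted per gene). The share was lower in the release genes in each of 5 length bands, but by unequal amounts. It was 12 of 42 (28.6%) against 40.4% at 30 to 100 kb and 5 of 36 (13.9%) against 32.9% at 100 to 300 kb. Over 300 kb, the band with the most member peaks, it was 17 of 81 (21.0%) against 24.75%. The bands under 10 kb and at 10 to 30 kb hold only 4 member peaks each. Weighted to the members' lengths, all genes had 31.9%. At least 1 overlapping pair was found in 22 release genes (41.5%) and in 36.4% of all protein-coding genes. By function the 22 were 10 of 15 active zone, 5 of 12 calcium sensor, 3 of 12 vesicle, 2 of 10 SNARE and 2 of 4 endocytic genes. With the strongest 50% of each list, 7 of the 53 release genes had such a pair, a lower share than the 16.5% of all genes. Without the CTCF peaks of 800 bp width it was 15 of the 53, a higher share than the 25.3% of all genes. The order thus differed between settings, and none of these shares of genes was matched for length.

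The broadly expressed counterparts are 24 genes of the same families that act in general membrane traffic, such as SNAP23, VAMP3, STX4, DNM2 and RAB11A. They had H3K27ac in 21 of 24 (87.5%, against 84.9% of the release genes) and CTCF in 15 of 24 (62.5%, against 86.8%), at a median length of 45.8 kb against 87.5 kb. Their median strongest fold enrichment was 15.0, against 13.6 in the release genes, and acetylated starts were found in 20 of 24 (83.3%) and 33 of 42 (78.6%). In the counterparts 17 of 30 CTCF peaks overlapped H3K27ac (56.7%), against 35 of 167 (21.0%). The shares of acetylated genes were close in both lists, while the shares for CTCF were further apart; these differences were not tested, and the lists differ in length as given.

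Some values belong to more than 1 gene. Of the H3K27ac peaks 31 of 244 (12.7%), and of the CTCF peaks 14 of 167 (8.38%), also lie in the extended interval of another coding gene, and this holds for the strongest H3K27ac peak of 10 of the 45 acetylated members. Without shared peaks, 43 members kept an H3K27ac peak, and the median of the strongest fold enrichment went from 13.6 to 11.3. Only VAMP1 and NSF lost all their acetylation in this way. The same shares were not computed over all protein-coding genes, so whether release genes share peaks more or less often is unknown.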

How the data were processed

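The 6 libraries of the 1 line KOLF2.1J were grouped by the labels into CTCF, H3K27ac and input, 2 of each; the inputs have no values of their own here. Per the submitters' processing notes the build was hg38 and cutadapt 1.16 was among the tools; the aligner, peak caller and thresholds are not given in the sources used here. For CTCF the authors deposited a peak signal whose scale is not stated. For H3K27ac the values in the authors' deposited list were read as a fold enrichment (ratio), judged from their range and layout. The deposited lists also give −log10 p or q values, and a display score that the authors' files hold was not used. Of the member H3K27ac peaks, 14 of 244 (5.74%) had q above 0.05, as had 6.92% of the list; for CTCF these shares were 4.19% and 4.92%. No per-sample columns were left out (0).

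Gene intervals were from RefSeq (GRCh38.p14), extended by 1 kb; a shared base counted as overlap. Similar length means within 20%. Start sites and promoters were from the RefSeq promoter table, with 42 of 53 genes matched by symbol. All names were matched by symbol, except TDGF1, by its synonym (CRIPTO). Counting used Python 3.11.15, pandas 2.3.3, numpy 2.4.6, scipy 1.17.1 and matplotlib 3.10.9, and was tested on simulated intervals. The members and lists were chosen with earlier results of these data known. Any member could be named; described in full were, per group, those with the highest value or most peaks, those without a peak, and those in the top 10% of genes of similar length. No test was made, since each antibody has a single list over both replicates.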

Additional observations from a re-analysis of the deposited data

How the results depend on the processing

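Of 33 alternatives run over 8 counts, 30 stayed within 1.5 times the reported count. The other 3 used the 50% of peaks with the highest value in each list: H3K27ac peaks on the release genes went from 244 to 119, CTCF peaks from 167 to 84, and genes with an overlapping pair from 22 to 7. The first pair follows from keeping 50% of each list. For the last, all genes had 16.5% in place of 36.4%, and the release genes went from above the share of all genes to below it. Without the CTCF peaks of 800 bp width, 15 release genes had a pair, a share still above the 25.3% of all genes. Genes with H3K27ac numbered 42 to 48 and genes with CTCF 34 to 49 over the alternatives. Leaving out 1 replicate could not be done. No paired analysis was possible because each list covers both replicates together, with no values of single replicates. The depth of the libraries is unknown, so the absence of a peak is an absence from the list and not of the mark. The scale of the CTCF signal is not stated, and it was compared only within its own list.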
